A study of Mus musculus with 9 samples.

Results

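The miR-29 family was followed through 6 mature arms, taken by name from the 1247 mouse miRNAs on the array: mmu-miR-29a-3p, mmu-miR-29a-5p, mmu-miR-29b-3p, mmu-miR-29b-1-5p, mmu-miR-29c-3p and mmu-miR-29c-5p. All 6 were called detected on 9 of 9 arrays and all 6 were among the 424 miRNAs that were tested, so no member was lost to the filter on dim signals. They are the family by name and were not picked by a measured value, though earlier results of these data were known. Hippocampal RNA came from male C57BL/6 mice that were about 8 weeks old when obtained, before the exposure. Fine airborne particles (PM2.5) were given to 3 mice at 1 mg/kg bw, 3 received 5 mg/kg bw and 3 were controls, with 3 arrays a group. Each array was taken to hold 1 mouse, from the study's count of mice per group, which the labels do not state. Control mice received saline and exposed mice received PM2.5 in saline by oropharyngeal aspiration on alternate days over 4 weeks, and tissue was taken 18 h after the last dose. The PM2.5 was winter air from 1 Chinese city, and no transgene or deletion is named. In RNA from whole tissue, fewer cells of a type and less of a miRNA per cell cannot be told apart.

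A miRNA is cut from a hairpin RNA whose 2 strands are called arms. In the miR-29 hairpins the 3p arm is the guide, which is loaded into Argonaute and pairs with messenger RNAs through its seed, and the 5p arm is the passenger, which is mostly degraded. The miR-29 guides are known for repressing collagens and other matrix genes, DNA methyltransferases and, in neurons, pro-apoptotic BH3-only genes, and their level rises as the brain matures. They also repress Bace1, the protease that starts the cutting of the amyloid precursor protein, which is why the study names the family. The hairpins lie in a pair of clusters, and members of a cluster are made from 1 primary transcript.

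The mature sequences of the 6 arms, from RefSeq on GRCm38.p6, are shown because the array tells the arms apart only by these letters. They are written 5′ to 3′ in lower case, with the seed (bases 2 to 8) in capitals. The guides come first.
miR-29a-3p: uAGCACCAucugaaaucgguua
miR-29b-3p: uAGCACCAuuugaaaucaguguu
miR-29c-3p: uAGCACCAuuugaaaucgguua
miR-29a-5p: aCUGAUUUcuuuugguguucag
miR-29b-1-5p: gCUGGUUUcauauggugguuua
miR-29c-5p: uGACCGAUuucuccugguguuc
The 3 guides shared the seed AGCACCA, which no other of the 1679 mature mouse miRNAs in the RefSeq table carried. The 3 passenger arms had 3 different seeds, each found in 1 mature miRNA of that table. From miR-29a-3p to miR-29c-3p the only substitution was C10U, counted from 1 at the 5′ end, and from miR-29b-3p to miR-29c-3p there were 3 (A18G, G21U and U22A) besides the extra last base of miR-29b-3p. The last 6 bases of miR-29b-3p, AGUGUU, are known as a signal for import into the nucleus in human cells, and they ended 2 of the 1679 mature miRNAs (0.119%).

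The miR-29a/b-1 cluster lies on the minus strand of chromosome 6, where 275 bases separate the hairpin genes Mir29a and Mir29b-1. miR-29a-3p lies at chr6:31062673-31062694, miR-29a-5p at chr6:31062711-31062732 and miR-29b-1-5p at chr6:31063067-31063088. The miR-29b-2/c cluster lies on the plus strand of chromosome 1, where 426 bases separate Mir29b-2 and Mir29c, with miR-29c-5p at chr1:195037562-195037583 and miR-29c-3p at chr1:195037600-195037621. miR-29b-3p is encoded in both clusters, at chr6:31063025-31063047 and at chr1:195037091-195037113, with the same letters, so the array cannot say which locus its signal came from. The passenger of the other miR-29b hairpin, miR-29b-2-5p, was also on the array and was detected on 0 of 9 arrays, with summed signals of 4.6 to 8.6 units. Every arm of the family other than this one therefore gave a signal that could be compared between groups.

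An Agilent miRNA array measures the fluorescence of labelled RNA held by short DNA probes that match the 3′ part of a miRNA. Between 410 and 436 miRNAs were detected per array, 0 spots were saturated, and the 75th percentile of the detected signal, by which each array was divided, lay between 492 and 614 units. The first slide carried 8 arrays in 2 rows: every control array was in row 1 beside the first 1 mg/kg bw array, and row 2 had the other two 1 mg/kg bw arrays and the first pair at 5 mg/kg bw. The remaining 5 mg/kg bw array was alone on slide 2, so slide, row and dose overlapped in part. Neuronal miR-124-3p, miR-9-5p and miR-128-3p were detected on 9 of 9 arrays, as hippocampus should give. With 3 arrays a group, precision was limited by their number. Below, a log2 signal is the log2 of an arm's summed signal over that 75th percentile, and a log2 change is a difference of such values between group means. Probes differ in brightness, so a log2 signal is read across arrays for 1 arm and never from arm to arm.

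The guide miR-29a-3p had log2 signals of 5.98, 5.86 and 5.89 in the control, 5.81, 5.67 and 5.85 at 1 mg/kg bw, and 5.81, 5.79 and 5.86 at 5 mg/kg bw. The lowest control array lay just above the highest array of either dose, so the groups did not overlap, and the gap at 5 mg/kg bw was under 0.01. Its log2 change was -0.13 (SE 0.07, limma adjusted p = 0.594) at 1 mg/kg bw and -0.09 (SE 0.07, limma adjusted p = 0.711) at 5 mg/kg bw, and neither passed the test, adjusted or not. On the fold scale the means were 0.913 (95% interval 0.816 to 1.02) and 0.940 (0.840 to 1.05) of the control.

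The guide miR-29b-3p, the product of both clusters, had log2 signals of 4.94, 4.85 and 4.89 in the control, 4.94, 4.78 and 4.79 at 1 mg/kg bw, and 5.01, 4.92 and 4.87 at 5 mg/kg bw. The 3 groups overlapped, and the highest array of all was a 5 mg/kg bw array. It was the only member whose mean at 5 mg/kg bw lay above the control, with a log2 change of 0.04 (limma adjusted p = 0.884), and this sign turned under quantile normalization and in the deposited log2 table (-0.02 and -0.03). At 1 mg/kg bw its log2 change was -0.06 (limma adjusted p = 0.865), against 0.05 without scaling of the arrays.

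The guide miR-29c-3p, which differs from miR-29a-3p at 1 base, had log2 signals of 4.64, 4.48 and 4.51 in the control, 4.43, 4.37 and 4.48 at 1 mg/kg bw, and 4.40, 4.44 and 4.56 at 5 mg/kg bw. The highest 1 mg/kg bw array stood level with the lowest control array, and 1 of the 5 mg/kg bw arrays lay among the controls. Its log2 change was -0.11 (95% interval -0.29 to 0.06) at 1 mg/kg bw and -0.08 (-0.25 to 0.10) at 5 mg/kg bw, and neither passed a test (limma adjusted p = 0.695 and 0.764).

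The passenger miR-29b-1-5p, from the chromosome 6 cluster, had log2 signals of -2.85, -3.004 and -2.99 in the control, -3.04, -3.16 and -3.16 at 1 mg/kg bw, and -3.06, -3.10 and -3.08 at 5 mg/kg bw. All 6 exposed arrays lay below all 3 control arrays, and control replicate 1 stood 0.14 above the next. Its log2 change was -0.17 (SE 0.07, limma adjusted p = 0.543, with an unadjusted p of 0.0364 in that model) at 1 mg/kg bw, or 0.886 of the control (95% interval 0.793 to 0.990). For both doses together it was -0.15 (SE 0.06, limma adjusted p = 0.415, with an unadjusted p of 0.0341). At 5 mg/kg bw it was -0.13 (limma adjusted p = 0.575, with an unadjusted p of 0.0936) and did not pass. Over all alternatives tried, the adjusted p of this arm ranged from 0.235 to 1.00 at 1 mg/kg bw and from 0.225 to 0.999 for both doses. The unadjusted call at 1 mg/kg bw was lost when any one of 4 arrays was left out: control replicate 1 (log2 change -0.12), replicate 2 or 3 of 1 mg/kg bw (-0.16 and -0.15), or replicate 2 of 5 mg/kg bw (-0.17). Within row 1 of slide 1, the single 1 mg/kg bw array lay -0.10 from the mean of the control arrays. With the row number as a block the changes were -0.14 at 1 mg/kg bw and -0.12 for both doses, and neither passed. This block counted the array on slide 2 with row 1 of slide 1.

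The passengers miR-29a-5p and miR-29c-5p showed no call. miR-29a-5p had log2 signals of -4.16, -4.23 and -4.10 in the control, -4.22, -4.27 and -4.34 at 1 mg/kg bw, and -4.18, -4.22 and -4.31 at 5 mg/kg bw. miR-29c-5p had log2 signals of -0.66, -0.86 and -0.78 in the control, -0.94, -0.89 and -0.78 at 1 mg/kg bw, and -0.94, -0.91 and -0.76 at 5 mg/kg bw. For both arms the exposed groups overlapped the control. The log2 changes of miR-29a-5p were -0.11 and -0.07, and those of miR-29c-5p were -0.10 at either dose, with limma p-values from 0.149 to 0.324 and adjusted p-values from 0.689 to 0.802. Without scaling, the change at 5 mg/kg bw was 0.04 for miR-29a-5p and 0.01 for miR-29c-5p.

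**Figure D1:**
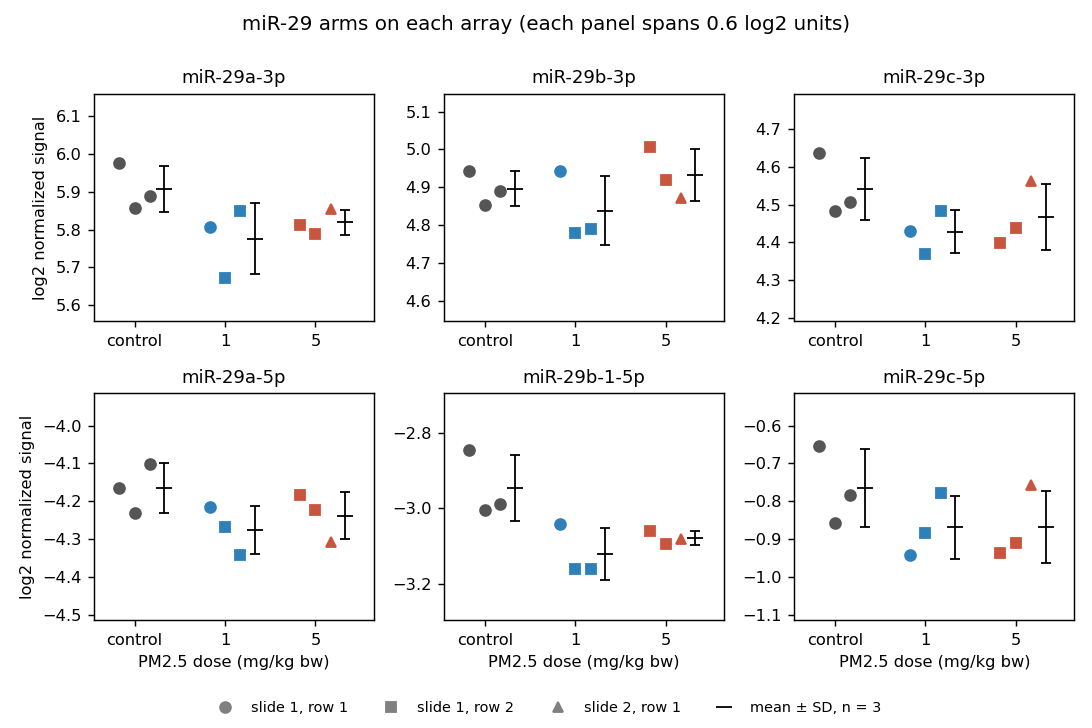
Log2 normalized signal (vertical axis, 0.6 units in every panel) of the 6 miR-29 arms on each of the 9 arrays by PM2.5 dose (horizontal axis), with guides in the upper row and passengers in the lower; symbols give the slide and row of the array, and bars the group mean ± SD, n = 3. All exposed arrays lie below all control arrays only for miR-29a-3p and miR-29b-1-5p, and miR-29a-3p is nearly level at the edge.

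At 1 mg/kg bw, 1 of the 6 passed limma's test at the unadjusted threshold of 0.05, beside 7.78% of all 424 tested miRNAs, and 0 passed the adjusted one, beside 0.236%. At 5 mg/kg bw, 0 of 6 passed, beside 9.43% of all tested, and for both doses together 1 of 6 passed, beside 10.4%. Comparing 5 with 1 mg/kg bw, 0 of 6 passed, beside 3.77% (adjusted, 0 of 6 beside 0.236%), and the groups overlapped for 6 of 6, where 7.31% of all tested did not. The groups did not overlap for 2 of 6 arms at 1 mg/kg bw (12.3% of all tested), for 2 of 6 at 5 mg/kg bw (16.0%) and for 2 of 6 with both doses together (5.90%), each time miR-29a-3p and miR-29b-1-5p.

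The log2 change lay below 0 for 6 of 6 arms at 1 mg/kg bw, where 60.1% of all tested miRNAs lay below 0, and for 5 of 6 at 5 mg/kg bw, where 51.2% did. For both doses it lay below 0 for 6 of 6 (56.1% of all tested), and between the doses for 0 of 6 (32.1%). Without scaling of the arrays the counts at the single doses were 4 and 1 of 6, while the median log2 change of all tested miRNAs moved from -0.03 to 0.08 at 1 mg/kg bw and from 0.00 to 0.11 at 5 mg/kg bw. The median change of the arms with scaling was -0.11 at the lower dose and -0.08 at the higher, and 0.00 and 0.03 without it. Scaling moves every miRNA of an array by the same amount, so the distance of the arms from the median of all miRNAs is the same in either case by construction. Between the doses the arms differed by 0.00 to 0.10, with a median of 0.04 that was equal to the median of all tested miRNAs. The control arrays are shared by all comparisons with the control.

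The arms varied little among replicate arrays. The residual SD of their log2 signals ran from 0.06 for miR-29a-5p to 0.09 for miR-29c-5p, between the 10.1 and 25.2 percentiles of all tested miRNAs. The 95% intervals of the 6 changes at 5 mg/kg bw together ran from 0.814 to 1.15 of the control, and at 1 mg/kg bw from 0.793 to 1.08. These ranges join the intervals of 6 arms, and that of a single arm is narrower. After adjustment, no change of an arm could be told from 0 by limma with 3 arrays a group.

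**Figure D2:**
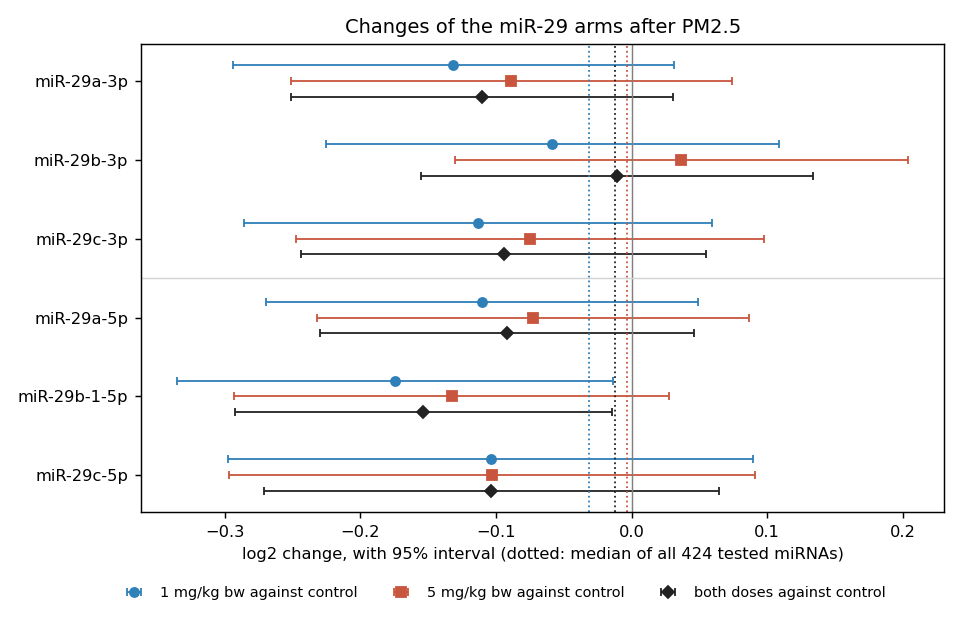
Log2 changes (horizontal axis) of the 6 miR-29 arms with their 95% intervals from the limma fit, at 1 mg/kg bw (circles), 5 mg/kg bw (squares) and both doses together (diamonds) against control; dotted lines mark the median change of all 424 tested miRNAs in the same colours. Only the intervals of miR-29b-1-5p at 1 mg/kg bw and for both doses stay below 0, and miR-29b-3p is the only arm above 0 at 5 mg/kg bw.

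To ask whether guide and passenger arms, or the clusters, moved apart after exposure, 5 differences between arms were taken on each array, in which the scaling of the array cancels, and 15 comparisons of groups were tested. Only the difference of miR-29b-3p and miR-29b-1-5p separated the groups. This guide minus passenger difference was 7.79, 7.86 and 7.88 in the control, 7.98, 7.94 and 7.95 at 1 mg/kg bw, and 8.07, 8.01 and 7.95 at 5 mg/kg bw, and it was higher on 6 of 6 exposed arrays than on all 3 control arrays. Group means were 7.84 ± 0.05 (SD, n = 3), 7.96 ± 0.02 and 8.01 ± 0.06. For both doses the difference of means was 0.14, with a two-sided exact permutation p = 0.0119, the smallest that 84 arrangements can give, and an adjusted p = 0.179 over the 15 tests. For 1 and 5 mg/kg bw alone the differences were 0.12 and 0.17, each with an exact p = 0.1, the smallest possible with 3 against 3 arrays, and an adjusted p = 0.5. After adjustment 0 of the 15 tests lay past the threshold. For 1 pair alone at its smallest possible p this outcome was fixed, since 15 tests then give 0.179. The adjusted p therefore cannot decide whether miR-29b-3p and miR-29b-1-5p moved apart.

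Since miR-29b-3p is made from both hairpins and miR-29b-1-5p from 1, this difference is not that of a single hairpin. Within row 1 of slide 1 it was 0.14 higher on the 1 mg/kg bw array than on the 3 control arrays, and within row 2 it was 0.10 higher at 5 than at 1 mg/kg bw (2 arrays each). Blocked by row number it was 0.13 for both doses (exact permutation within rows, p = 0.1, the smallest that 10 arrangements can give). Row 2 held no control array, so the exposed arrays there did not enter this value. It rests on replicate 1 of 1 mg/kg bw and replicate 3 of 5 mg/kg bw against the control. That block counted the 5 mg/kg bw array on slide 2 with row 1 of slide 1, so it did not separate the slides. Its unadjusted call was lost with normexp background correction (0.10, exact permutation p = 0.0714) and under quantile normalization (0.11, exact permutation p = 0.417).

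For the other pairs the groups overlapped, and the exact tests at single doses could not go below 0.1. The difference of miR-29a-3p and miR-29a-5p changed by -0.02 on the log2 scale at either dose (exact permutation p = 0.9 and 1.0), and that of miR-29c-3p and miR-29c-5p by -0.01 and 0.03 (exact permutation p = 0.9 and 0.3). Between the clusters, the difference of the guides miR-29c-3p and miR-29a-3p changed by 0.02 and 0.01 at the lower and the higher dose (exact permutation p = 0.5 and 0.8), and that of the passengers miR-29c-5p and miR-29a-5p by 0.01 and -0.03 (exact permutation p = 0.9 and 0.7). The values of the passenger pair spread most, with SDs of 0.10, 0.15 and 0.16 (n = 3 each) in the control, 1 and 5 mg/kg bw groups, so a shift of about that size could not have been seen. For both doses, where the exact test could have passed before adjustment, its p-values over these 4 pairs ran from 0.619 to 0.869. A difference between the clusters was therefore not detected at this number of arrays, which does not show that they moved alike. The probes of miR-29a-3p and miR-29c-3p each have 1 mismatch to the other guide, and binding of the other guide was not tested.

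**Figure D3:**
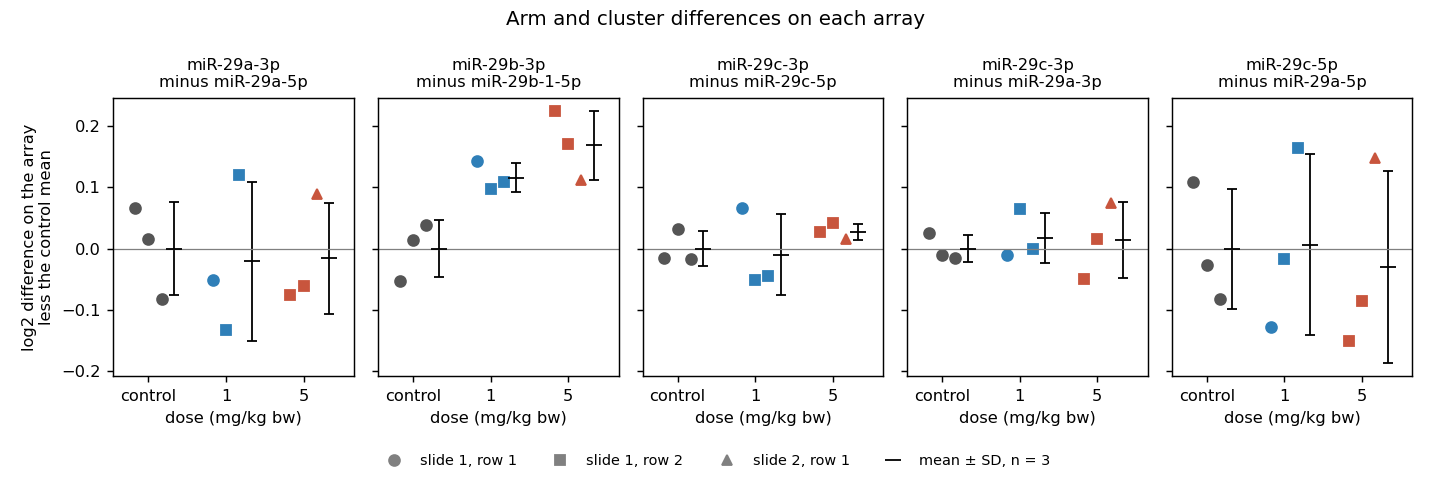
Difference of the log2 signals of a pair of miR-29 arms on each array, less its control mean (vertical axis, log2), by PM2.5 dose (horizontal axis); symbols give the slide and row, and bars the group mean ± SD, n = 3. The exposed arrays lie above all control arrays for miR-29b-3p minus miR-29b-1-5p, by 0.12 and 0.17 on average, and overlap the control in the other panels.

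Each arm was read by 2 to 4 probes that start at its 3′ end and differ in how far they reach toward the 5′ end. Both probes of each guide and of miR-29c-5p had 100% of their spots well above background. For miR-29a-5p this held only for the probe of 22 bases (100%), and for miR-29b-1-5p only for the probes of 21 bases (97.8%) and 22 bases (100%), with mean signals of 22.4, 19.1 and 44.0 units. The probes of a guide gave similar changes: -0.14 and -0.13 at 1 mg/kg bw for miR-29a-3p, -0.09 and -0.05 for miR-29b-3p, and -0.10 and -0.12 for miR-29c-3p. The probes of miR-29a-3p have 1 mismatch to miR-29c-3p and those of miR-29c-3p have 1 to miR-29a-3p, and how much each binds the other arm was not tested.

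The probes of miR-29b-1-5p did not give the same change at 5 mg/kg bw, where the probe of 22 bases was lower by -0.23 and that of 21 bases stood at 0.01. At 1 mg/kg bw they gave -0.19 and -0.17. On neither probe alone did the exposed arrays lie all below the control: the log2 signals of the 22-base probe were -3.35, -3.70 and -3.52 in the control, -3.66, -3.81 and -3.68 at 1 mg/kg bw, and -3.74, -3.81 and -3.73 at 5 mg/kg bw. With that probe alone, a choice made after these values were seen, the guide minus passenger difference for both doses was 0.20 (exact permutation p = 0.0357), and with the 21-base probe alone it was 0.07 (exact permutation p = 0.488). On the 22-base probe the 5 mg/kg bw arrays did lie below all control arrays, the nearest at -3.73 against -3.70, whereas the 1 mg/kg bw arrays overlapped them. The separation of all exposed arrays from the control for miR-29b-1-5p thus held for the sum of its probes. It did not hold for either of the probes that carried it.

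**Figure D4:**
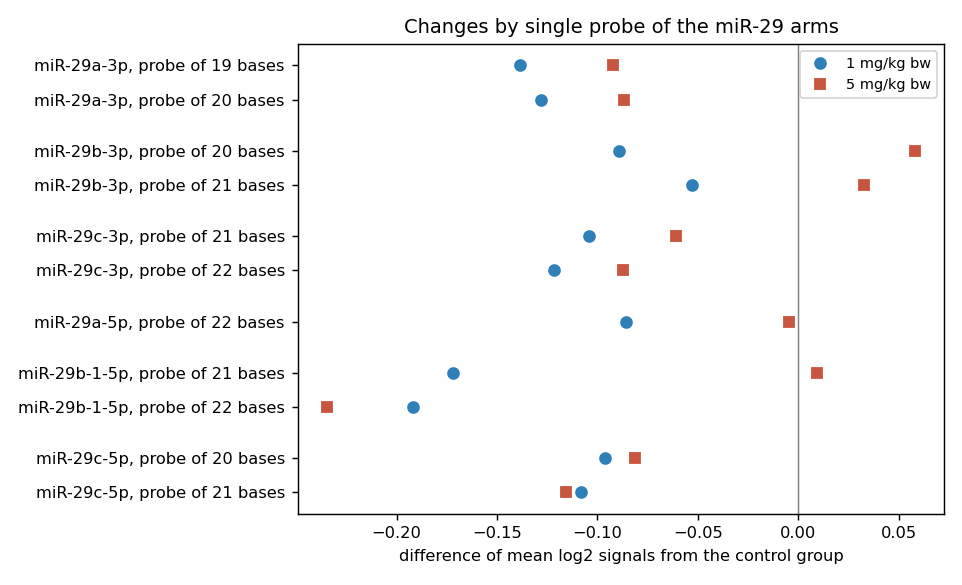
Difference of mean log2 signals from the control group (horizontal axis) for each probe of the miR-29 arms with over 50% of its spots well above background, at 1 mg/kg bw (circles) and 5 mg/kg bw (squares). The probes of a guide lie close together, whereas at 5 mg/kg bw the miR-29b-1-5p probes of 21 and 22 bases lie at 0.01 and -0.23.

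The scaling of the arrays shifted the arms by about as much as their changes. Dividing by the median in place of the 75th percentile of the detected miRNAs moved the median change of the 6 arms only from -0.11 to -0.12 at 1 mg/kg bw. Quantile normalization, which gives all arrays the same set of values, left the brightest arm miR-29a-3p with a log2 change of 0 at both doses. Over the mouse miRNAs of the deposited log2 table, the upper quartile (1.54) and the maximum (15.4) are equal on all 9 arrays, and there miR-29a-3p takes 2 distinct values over 9 arrays and miR-29b-3p and miR-29c-3p take 3 each. The changes of the guides cannot be read at their own resolution from that table. In it miR-29a-5p stood at -0.25 for the lower dose and 0.12 for the higher, the widest gap between the doses for an arm among the 8 treatments plotted.

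**Figure D5:**
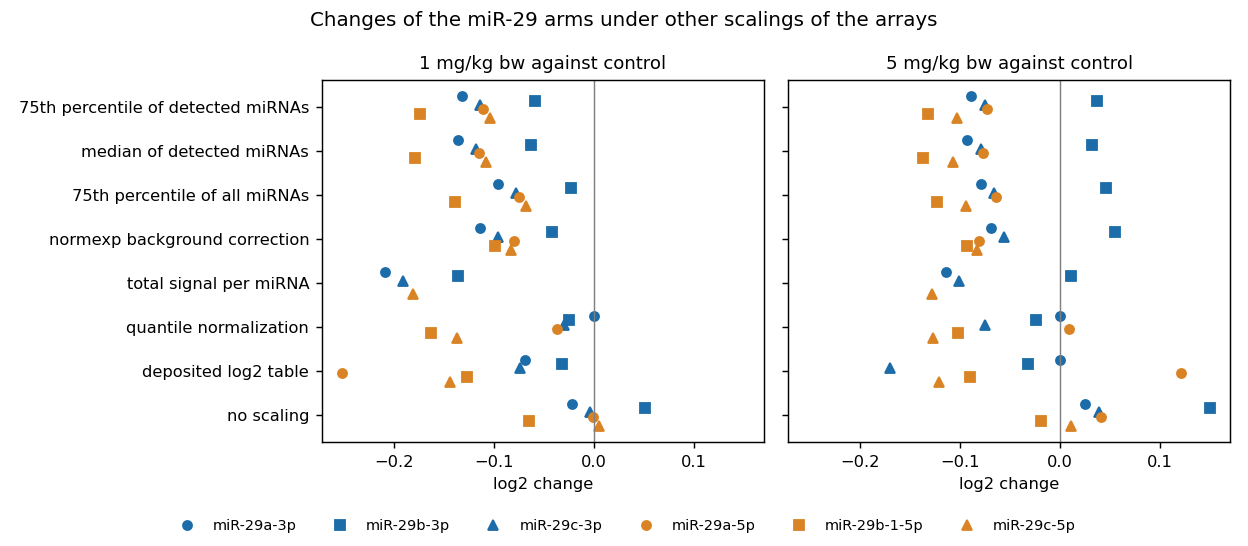
Log2 changes (horizontal axis) of the guides (blue) and passengers (orange) of miR-29a (circles), miR-29b (squares) and miR-29c (triangles) at 1 and 5 mg/kg bw against control under 8 treatments of the arrays (vertical axis). Without scaling 4 of 6 arms lie below 0 at 1 mg/kg bw and 1 of 6 at 5 mg/kg bw, and under quantile normalization miR-29a-3p lies at 0.

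Some pairs of arms followed each other across the 9 arrays and others did not. Pearson's r was 0.91 between miR-29c-3p and miR-29c-5p and 0.89 between the guides miR-29a-3p and miR-29c-3p of different clusters. It was 0.36 between miR-29a-3p and miR-29a-5p, 0.36 between miR-29a-3p and miR-29b-3p, and 0.10 between miR-29b-3p and miR-29c-3p, and over all pairs of tested miRNAs the median was 0.02. These are descriptions over 9 arrays that share the scaling and the groups. In addition, the probes of miR-29a-3p and miR-29c-3p each have 1 mismatch to the other guide, and how much they bind it was not tested. After removal of the group means, r was 0.90 for the miR-29c arms, 0.81 for miR-29a-3p with miR-29c-3p, and -0.20 for the miR-29a arms.

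Outside the family, the tested miRNAs whose log2 signals most resembled miR-29a-3p over the 9 arrays were the neuronal miR-128-3p (r = 0.96), miR-744-3p (0.95) and let-7e-5p (0.93). For miR-29c-3p they were miR-128-3p (0.96), miR-181c-5p (0.96) and let-7a-5p (0.95), and for miR-29b-3p they were miR-125a-3p (0.85), miR-431-3p (0.83) and miR-664-3p (0.83). These r were picked as the highest over all tested miRNAs on 9 arrays, so their size is not a result in itself. miR-29a-3p and miR-29c-3p, which had r = 0.89 with each other, shared miR-128-3p at the head of their lists. miR-29b-3p shared none of the 3 with either.

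Other miRNAs that the study lists as regulators of Bace1, from miR-9 to miR-328, had 12 arms on the array, of which 9 were tested. Against control, 0 of the 9 passed the unadjusted threshold in the limma fit at 1 mg/kg bw, at 5 mg/kg bw or for both doses (7.78%, 9.43% and 10.4% of all tested), with median log2 changes of -0.04, 0.06 and -0.04. Between the doses 2 of 9 passed unadjusted (3.77% of all tested) and were higher at 5 than at 1 mg/kg bw, mmu-miR-186-3p by 0.23 (limma adjusted p = 0.995, with an unadjusted p of 0.0172) and mmu-miR-9-5p by 0.17 (limma adjusted p = 0.995, with an unadjusted p of 0.0295). Of these, mmu-miR-186-3p was dim, with log2 signals of -5.36 to -4.91 and detection on 8 of the 9 arrays. The study names the miRNAs of this list without an arm. The median change at 5 mg/kg bw was thus 0.06 for these miRNAs and -0.08 for the miR-29 arms, and this contrast was not tested.

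Summed signals of markers of other cells are given as ranges; they were not compared by a test, and their part in the changes of the arms was not tested. The sums of the neuronal, oligodendrocyte and vessel wall markers overlapped the control at both doses. The 3 neuronal markers, all detected on 9 arrays, summed to 7.09 to 7.31 on the log2 scale in the control, 6.85 to 7.10 at 1 mg/kg bw and 7.01 to 7.25 at 5 mg/kg bw. The 5 choroid plexus markers, of which 3 were detected on all arrays, summed to 1.69 to 2.33 in the control, 2.47 to 3.16 at 1 mg/kg bw and 1.58 to 2.52 at 5 mg/kg bw. The 4 oligodendrocyte markers summed to 2.07 to 2.62, 2.36 to 2.69 and 1.56 to 2.77 in the same order. The 4 vessel wall markers, all detected on 9 arrays, summed to 2.57 to 2.70, 2.64 to 2.72 and 2.60 to 2.77. The 5 microglial and immune markers, of which miR-142-5p was detected on 0 arrays, summed to -0.97 to -0.95, -0.95 to -0.84 and -0.89 to -0.82, so all 5 mg/kg bw arrays lay above the control, as a non-overlap that 16.0% of single tested miRNAs showed. Of the 3 red blood cell markers, miR-144-5p was detected on 0 arrays, and the sum was 1.54 to 1.89 in the control, 1.58 to 1.82 at 1 mg/kg bw and 1.92 to 2.04 at 5 mg/kg bw, again with no overlap between 5 mg/kg bw and control. The choroid plexus sum at 1 mg/kg bw likewise lay above all control arrays, where 12.3% of single tested miRNAs did not overlap. Over all these lists, 0 markers passed limma's test after adjustment in any comparison. At an unadjusted p under 0.05, 3 markers were higher than the control at 1 mg/kg bw, beside 7.78% of all tested miRNAs. They were 2 of 5 tested choroid plexus and 1 of 4 vessel wall markers. At 5 mg/kg bw 2 were higher, beside 9.43%: 1 of 4 tested microglial or immune and 1 of 2 tested red blood cell markers. Between the doses, 4 of 5 choroid plexus markers were lower at 5 than at 1 mg/kg bw, beside 3.77% of all tested. There 1 of 3 neuronal and 1 of 2 tested red blood cell markers were higher.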

How the data were processed

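Per the labels and the methods, the authors hybridized hippocampal RNA to Agilent mouse miRNA arrays (version 19.0, 1 colour) and extracted them with Feature Extraction 10.7. The deposited scanner intensity values per spot are background-subtracted and not normalized between arrays. The authors also deposited a log2 table whose scale and centring are not stated. Here the processed intensities were averaged over the spots of a probe, without outlier spots, and added over the probes of each miRNA. Arrays were scaled to the 75th percentile of 395 miRNAs with detection calls on 9 of 9 arrays. A floor was set at the dimmest detected signal of each array before log2. A miRNA was tested if 3 of 3 arrays of some group detected it, which left 424. A single model of the 3 groups was fitted with limma 3.58.1 (R 4.3.3), with two-sided tests and Benjamini-Hochberg adjustment over all tested. Arm differences were compared by exact permutation over arrays (84 or 20 arrangements, two-sided), enumerated in Python 3.11.15 and checked against scipy 1.17.1. Both steps were tested on simulated data. No pair of arrays held copied values (0 spots identical). The p-values measure only the spread between these samples. Members and lists were chosen with earlier results of these data known. Outside the family, the rule named the 3 miRNAs with the highest Pearson r to each guide, and Bace1-linked miRNAs at an unadjusted p under 0.05. Sequences and coordinates are RefSeq's on GRCm38.p6, where all 6 arms were found by name. Alternatives were other values, scalings, filters, variance models and blocks, each array left out, and, chosen after the data were seen, single probes of miR-29b-1-5p.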

Additional observations from a re-analysis of the deposited data

How the results depend on the processing

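Of the 22 alternatives to each comparison, 9 of which left out 1 array each, none brought an arm to an adjusted p under 0.05 by limma (lowest 0.225). The count of arms at an unadjusted p under 0.05 stayed at 0 for 5 against 1 mg/kg bw throughout. At 1 mg/kg bw and for both doses it fell from 1 to 0 with normexp background correction, the 75th percentile of all miRNAs, no scaling, the deposited log2 table, no filter or a block for the slide row, and for both doses also with the slide as a block. It ran from 0 to 1 as single arrays were left out, being 0 when control replicate 1, either replicate 2 or 3 of 1 mg/kg bw, or replicate 2 of 5 mg/kg bw was absent, and for both doses also without 5 mg/kg bw replicate 3. At 5 mg/kg bw it rose from 0 to 1 without moderation of the variances (miR-29b-1-5p, unadjusted p of 0.0463). Of the 15 arm and cluster tests, 1 passed unadjusted with each array left out in turn, and 0 passed with normexp, quantile normalization or the deposited table. The cause of these losses was not tested. Also 0 passed with the replicate block or the row block, whose smallest possible p of 0.25 and 0.1 left no test able to pass.

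Signs of single arms turned as follows, as log2 changes, and the cause was not tested. Without scaling, miR-29b-3p stood at 0.051 and miR-29c-5p at 0.00558 at 1 mg/kg bw. At 5 mg/kg bw without scaling, miR-29a-3p, miR-29a-5p, miR-29c-3p and miR-29c-5p stood at 0.0253, 0.0409, 0.0388 and 0.0109, and for both doses miR-29a-3p, miR-29a-5p, miR-29b-3p, miR-29c-3p and miR-29c-5p stood at 0.00157, 0.0199, 0.101, 0.0173 and 0.00826. At 5 mg/kg bw miR-29a-5p was 0.00951 under quantile normalization and 0.121 in the deposited table, and miR-29b-3p was -0.0243 and -0.0317. For both doses miR-29b-3p was 0.00684 with normexp, 0.0116 with scaling over all miRNAs, 0.00438 with the slide block and 0.0114 with the row block. With single arrays left out, miR-29b-3p ran from -0.000652 to 0.0672 at 5 mg/kg bw and from -0.0372 to 0.0133 for both doses.

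Replicate numbers did not pair the samples: the deviations of same-numbered arrays from their group means correlated between -0.648 and 0.738 across miRNAs. With the replicate block the limma counts stayed at 1, 0, 0 and 1, and the arm difference that passed had p = 0.25, the smallest that exact sign flips of 3 pairs can give. Slide and dose overlap, since slide 2 held 1 array of 5 mg/kg bw, so the slide block equals leaving it out. With the total signal of the scanner files, 0 of the 4 arms it could be used for passed in any comparison.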

Other observations

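The total signal per miRNA that the scanner files give did not measure 2 of the arms. For miR-29a-5p it exceeded the total of miR-29a-3p by 3.7 to 4.5 units on every array, at 358 to 425 times the sum of its own probes, and that of miR-29b-1-5p exceeded that of miR-29a-5p by 10.4 to 13.2 units. For the other 4 arms it was 0.361 to 0.365 of the sum of the probes. Of the 424 tested miRNAs, 104 had a total above the sum of their own probes on some array, and these were left out of that alternative.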
